A study of Homo sapiens with 4 samples.

Results

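The genes described here build the machinery that brings proteins into mitochondria and keeps the mitochondrial genome copied and read. They were taken from the gene table by name: protein-coding Ensembl entries whose symbol starts with TIMM or TOMM and a number, plus the prohibitins PHB and PHB2, the matrix proteases and processing peptidases LONP1, CLPP, PMPCA and PMPCB, the import co-chaperone GRPEL1, and the mitochondrial DNA (mtDNA) factors TFAM, TFB1M, TFB2M, POLG, POLG2, POLRMT, SSBP1 and C10orf2, the older symbol of the helicase TWNK. The rule found 40 entries among 53777 Ensembl entries. RNA was sequenced from NUGC3, an established human stomach cancer cell line, in 4 libraries: 2 of wild-type cells and 2 of cells of the same line with a knockdown of the transcription factor MYC. No other treatment, time or allele is labelled. The knockdown method was not given in the sources used here, and 1 cell line stands for each group. Nothing in the labels says that the libraries of a group came from separate cultures, so a p-value here measures no more than the spread among these libraries, which may be technical.

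Most mitochondrial proteins are made in the cytosol and pass the outer membrane through the TOM complex. From there the TIM23 complex takes those with a presequence into the matrix, and the small TIM chaperones pass carrier proteins to the TIM22 complex of the inner membrane. In the matrix the processing peptidase removes presequences. Mitochondrial DNA is copied by the polymerase POLG with the helicase TWNK, and transcribed by POLRMT with TFAM and TFB2M. MYC is known as a transcription factor that raises the expression of many genes for ribosomes and mitochondria.

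MYC itself measured 82.9 and 82.0 FPKM without the knockdown and 65.0 and 75.8 FPKM with it, so the groups did not overlap but were close. FPKM counts fragments scaled by transcript length and by the mapped fragments of the library. The log2 change of MYC, knockdown minus wild type on the log2(FPKM + 1) scale used throughout, was −0.23 with a standard error (SE) of 0.10, and it did not pass (limma with Benjamini-Hochberg adjustment, adjusted p = 0.237). The deposited values sum to between 674328 and 739335 per library, and the depth in fragments is unknown. All 5 epithelial markers were expressed, with summed levels of 5045 and 5101 FPKM without the knockdown and 5904 and 5302 FPKM with it. Their groups did not overlap for 4 of 5: KRT19, KRT8 and CDH1 were higher with the knockdown and EPCAM was lower. Over all genes tested, 33.4% were higher and 25.2% lower without overlap. KRT19 had 655 and 661 FPKM without the knockdown and 1047 and 1153 FPKM with it, a log2 change of 0.74 (limma adjusted p = 0.0556). CDH1 stood at a log2 change of 0.30, KRT8 at 0.15, KRT18 at −0.10 and EPCAM at −0.15, and the part of these differences in the results for the import and mtDNA genes was not tested. Of the fibroblast markers COL1A1 reached 8.12 FPKM and the other 5 at most 0.02 FPKM, and 0 of 5 leukocyte markers reached 1 FPKM. Interferon-stimulated genes set MYC knockdown replicate 1 apart: the 17 genes listed summed to 1737 FPKM there and to between 292 and 296 FPKM in the other libraries.

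The import and mtDNA genes were lower as a group in both knockdown libraries, by a modest amount. Of the 40 entries, 38 reached 1 FPKM in at least 2 libraries and were tested, and the lowest value of any of them in any library was 3.29 FPKM. Their median log2 change was −0.29, against 0.04 over all 12953 genes tested. The log2 change was below 0 for 35 of 38, against 44.7% of all genes tested. That count was 32 with equal column sums, where POLRMT, TIMM17B and TOMM70A turned positive, 37 with median-of-ratios scaling and 36 with quantile normalization. For 29 of 38 members the groups did not overlap and the knockdown was lower, against 25.2% of all genes tested. For 1 member they did not overlap and the knockdown was higher, against 33.4%. By library the median was −0.22 for MYC knockdown replicate 1 and −0.30 for replicate 2, against 0.07 and 0.01 over all genes tested. Each was measured from the mean of the same wild-type libraries. In bulk RNA, fewer cells expressing a gene and less of its RNA per cell cannot be told apart.

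Single members did not pass at the threshold. Limma called 0 of the 38 members and 0% of all genes tested at an adjusted p under 0.05, where the smallest adjusted p of a member was 0.0572. At an unadjusted p under 0.05, 21 members were lower and 0 higher, against 11.5% and 14.4% of all genes tested. At an adjusted p under 0.10 limma called 7 members, all lower, against 4.91% of all genes tested that were lower and 5.5% that were higher: TIMM13, TOMM22, C10orf2, TFB2M, TIMM8A, TOMM20 and PHB. The count at 0.05 depended on which libraries gave the spread. It was 26 of 38 without MYC knockdown replicate 1, where 26.1% of all genes tested were called, and 15 of 38 without MYC knockdown replicate 2, where 26.3% were. These are fits in which the lone knockdown library was assumed to vary like the close wild-type pair. Without either wild-type library it was 0. The count of 7 at an adjusted p under 0.10 depended on the same choice. It was 0 without either wild-type library, 27 without MYC knockdown replicate 1 (40.9% of all genes tested) and 25, of which 24 were lower, without MYC knockdown replicate 2 (41.4%). It was also 0 with no filter on low values (0% of all genes tested), 3 without the mean trend (6.47%) and 13 with median-of-ratios scaling (12.8%).

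**Figure D1:**
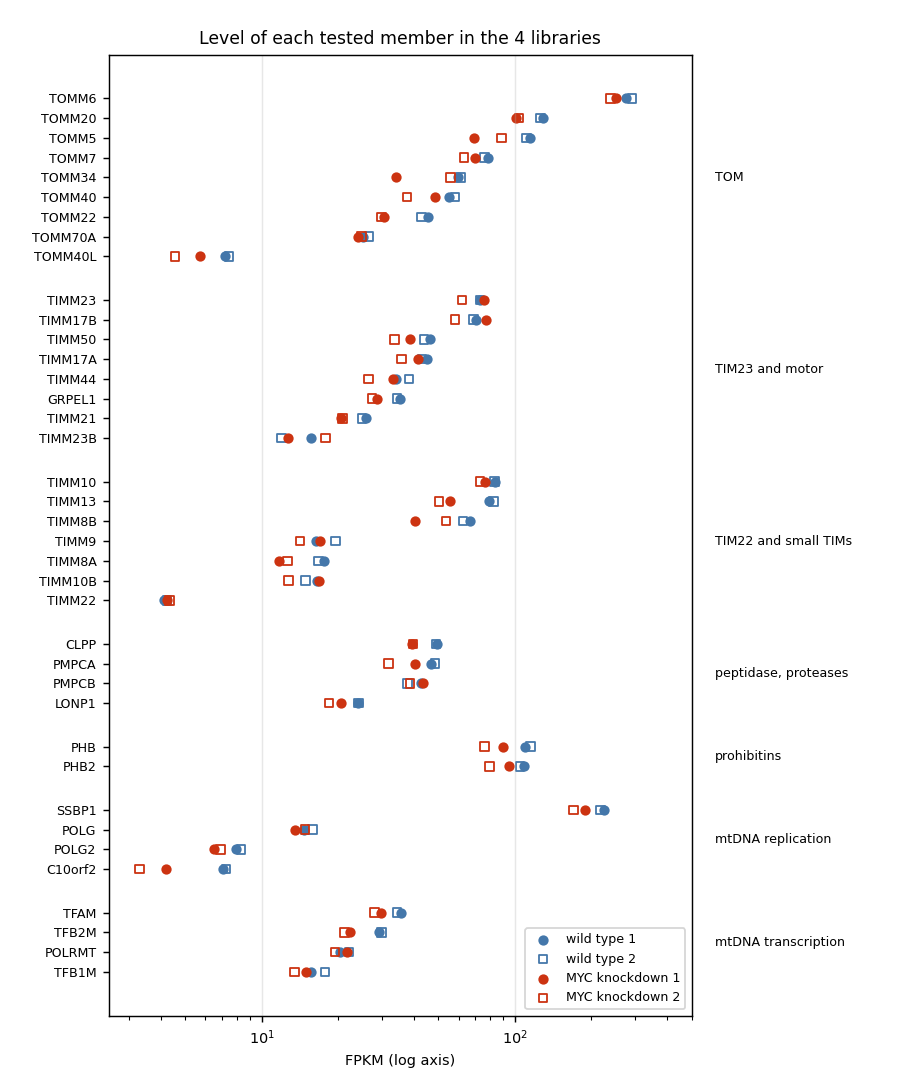
FPKM (log axis) of each of the 38 tested members in the 4 libraries, grouped by role and ordered by level; each point is 1 library, blue for wild type and red for MYC knockdown, with filled circles for replicate 1 and open squares for replicate 2. The levels run from 4.16 FPKM for TIMM22 to 284 FPKM for TOMM6 in the wild-type mean, and the red points lie left of the blue ones for 29 members.

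The TOM genes were lower in both knockdown libraries. In all 9 tested members of this group each knockdown library was below each wild-type library, against 25.2% of all genes tested. Their log2 changes ran from −0.54 to −0.08 with a median of −0.40, though TOMM70A turned positive with equal column sums. TOMM22, the central receptor that also holds the complex together (chromosome 22, 38681948 to 38685421, plus strand, GRCh38 by GENCODE release 29), had 45.3 and 42.9 FPKM without the knockdown and 30.3 and 29.8 FPKM with it. The knockdown pair was tighter than the wild-type pair, and its mean was 68.2% of the wild-type mean (30.1 ± 0.375 against 44.1 ± 1.71 FPKM, SD, n = 2). Its log2 change was −0.54 with an SE of 0.08 (limma adjusted p = 0.0593).

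TOMM20, the receptor that binds presequences (chromosome 1, 235109336 to 235128936, minus strand), had 129 and 126 FPKM in wild type against 101 and 104 FPKM in the knockdown. That is a log2 change of −0.32 with an SE of 0.07 (limma adjusted p = 0.0903). TOMM40, the channel through the outer membrane, had 55.1 and 58.2 FPKM against 48.6 and 37.6 FPKM, with the lower value in MYC knockdown replicate 2. Its paralog TOMM40L, at a much lower level, had 7.14 and 7.42 FPKM without the knockdown and 5.69 and 4.54 FPKM with it. Both genes of this pair had their lowest value in MYC knockdown replicate 2, and their log2 changes were −0.40 and −0.44.

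The small TOM subunits differed in size of change. TOMM5 had 114 and 111 FPKM without the knockdown and 69.3 and 88.8 FPKM with it, with the lower value in MYC knockdown replicate 1 (log2 change −0.52, SE 0.14). TOMM6, with the highest level of all members, was at 276 and 291 FPKM against 252 and 239 FPKM, a log2 change of −0.21. All exon bases of TOMM6 overlap other annotated genes, AL365205.1 and USP49, and strandedness of the libraries is not given. Its reads and those of these genes thus cannot be told apart with certainty. Exons of 23 members overlap another annotated gene, among them TIMM8B (32.3% of exon bases), TIMM9 (30.5%), PHB (25.1%), TOMM40L (20.2%) and TOMM5 (18.7%). TOMM7 lay at −0.22, and TOMM70A, the receptor for carrier proteins, at −0.08.

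TOMM34, a cytosolic co-chaperone of import despite its name, was the member with the widest gap in the knockdown group. Its level was 59.6 and 61.0 FPKM in wild type, 34.1 FPKM for MYC knockdown replicate 1 and 55.7 FPKM for replicate 2. Without MYC knockdown replicate 1 its log2 change was −0.11 and without MYC knockdown replicate 2 it was −0.80, against −0.46 over all 4 libraries. TOMM20L, a paralog of TOMM20, was listed at 0 in all 4 libraries and was not tested.

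The TIM23 complex and its motor had a smaller median change than TOM. Their knockdown libraries lay further apart, with a median gap of 0.25 on the log2 scale against 0.14 for TOM. Over all genes tested that gap was 0.20. Of 8 members, 5 had groups that did not overlap, all lower, against 25.2% of all genes tested that were lower without overlap. The median log2 change of the 8 members was −0.23. TIMM50, the receptor that takes over presequences from TOM, had 46.5 and 43.9 FPKM without the knockdown and 38.5 and 33.4 FPKM with it, a log2 change of −0.32 with an SE of 0.10. GRPEL1, the nucleotide exchange factor of the matrix motor, was at 35.2 and 34.3 FPKM against 28.5 and 27.3 FPKM, a log2 change of −0.31 with an SE of 0.08. Both genes were lower in each knockdown library than in each wild-type library. TIMM21 and TIMM44, which link the channel to TOM and to the motor, lay at −0.28 and −0.27.

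Of the channel-forming genes of TIM23, TIMM23 and TIMM17B overlapped between the groups and TIMM17A did not. TIMM23 was at 73.0 and 72.8 FPKM in wild type, 75.4 FPKM for MYC knockdown replicate 1 and 61.9 FPKM for replicate 2. TIMM17B had 70.5 and 68.9 FPKM without the knockdown and 77.2 and 58.2 FPKM with it. In both, MYC knockdown replicate 1 was above wild type and MYC knockdown replicate 2 below it. TIMM17A, the other TIMM17 paralog, was at 44.9 and 43.1 FPKM against 41.7 and 35.7 FPKM, with both libraries of the knockdown lower and a log2 change of −0.19. The difference between the TIMM17 paralogs was not tested. TIMM23B, a near-identical copy of TIMM23 whose reads may be shared with it, ranged from 11.97 to 17.88 FPKM with the highest value in MYC knockdown replicate 2, so the values of this pair are uncertain.

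In the TIM22 complex and small TIM chaperones the log2 changes ran from −0.60 to 0.03. TIMM13 and TIMM8A, which form 1 chaperone complex, were both lower in each knockdown library. TIMM13 (chromosome 19, 2425624 to 2427894, minus strand) had 78.9 and 82.6 FPKM without the knockdown and 55.6 and 50.2 FPKM with it, or 65.5% of the wild-type mean (52.9 ± 3.83 against 80.7 ± 2.57 FPKM, SD, n = 2). Its log2 change of −0.60 with an SE of 0.09 had the smallest adjusted p of the members (limma adjusted p = 0.0572), and 28.9% of its exon bases overlap other annotated genes. TIMM8A (chromosome X, 101345659 to 101349196, minus strand) was at 17.7 and 16.8 FPKM against 11.8 and 12.7 FPKM, a log2 change of −0.47 with an SE of 0.10 (limma adjusted p = 0.0850). Its paralog TIMM8B had 66.8 and 62.5 FPKM without the knockdown and 40.6 and 53.5 FPKM with it. It too lay at −0.46, with an SE of 0.15 and the lower value in MYC knockdown replicate 1.

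TIMM10 and TIMM9 form the other small chaperone and were closer to wild type. TIMM10 was at 83.8 and 83.2 FPKM against 76.2 and 72.8 FPKM, which did not overlap, with a log2 change of −0.16. TIMM9 overlapped between the groups, at a log2 change of −0.20, as did TIMM10B of the TIM22 complex, at −0.09. A further entry with the TIMM10B symbol, read at 0.12 FPKM in 1 library and 0 in the others, was not tested. TIMM22, the channel that inserts carrier proteins, had 4.10 and 4.22 FPKM without the knockdown and 4.23 and 4.33 FPKM with it. It was the 1 member whose groups did not overlap with the knockdown higher. The log2 change was 0.03 with an SE of 0.12, and it turned to −0.0058 with a median-of-ratios scaling and to −0.05 with quantile normalization.

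**Figure D2:**
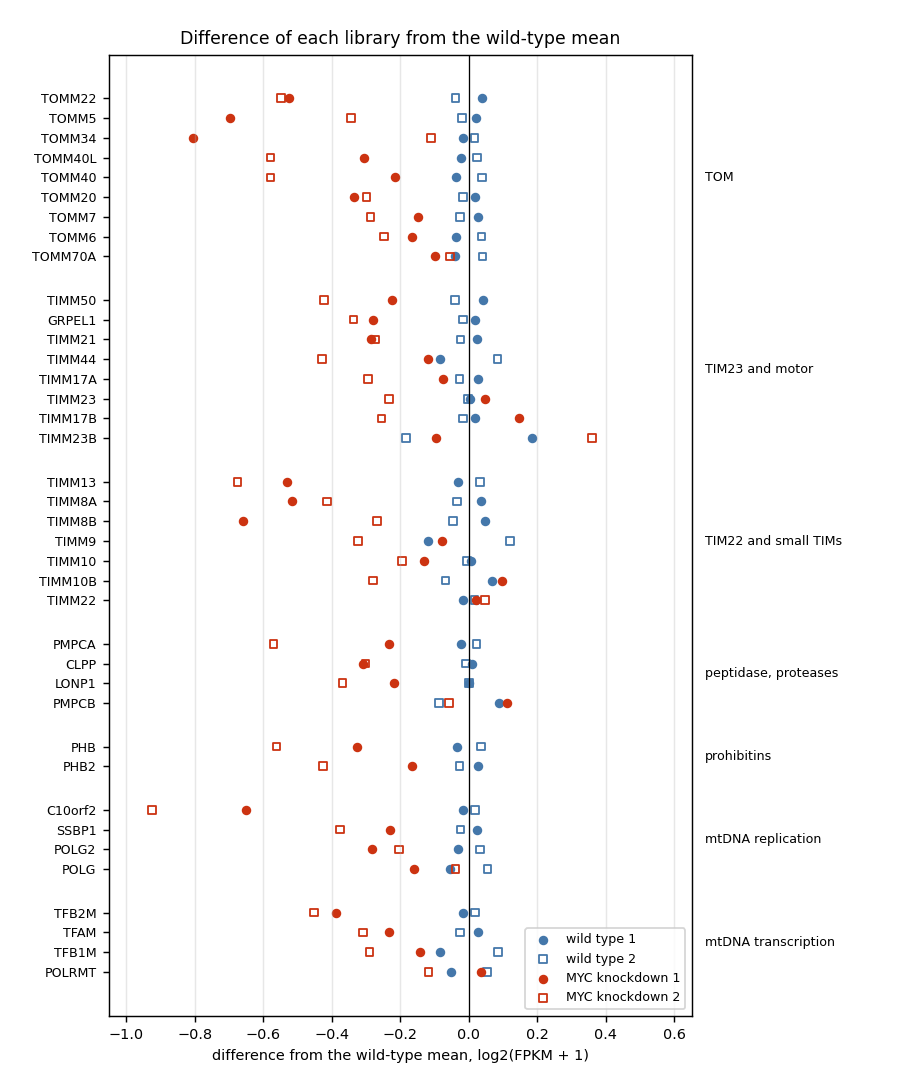
Difference of each library from the wild-type mean on the log2(FPKM + 1) scale for the 38 tested members, grouped by role; blue points are the wild-type libraries and red points the MYC knockdown libraries, with filled circles for replicate 1 and open squares for replicate 2. C10orf2 lies farthest left for replicate 2, at −0.92, and TOMM34 for replicate 1, at −0.80, while POLRMT, PMPCB, TIMM17B, TIMM22 and TIMM23 stay near 0 or straddle it.

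Both prohibitins, which form a ring-shaped scaffold in the inner membrane, were lower in both knockdown libraries. PHB (chromosome 17, 49404049 to 49414905, minus strand) had 110 and 116 FPKM without the knockdown and 89.7 and 76.1 FPKM with it, a log2 change of −0.44 with an SE of 0.11 (limma adjusted p = 0.0989). PHB2 was at 109 and 105 FPKM against 95.3 and 79.5 FPKM, a log2 change of −0.30 with an SE of 0.11. The wild-type levels of the pair were close, and in both genes MYC knockdown replicate 2 was the lowest library. GENCODE names 21 pseudogenes after PHB; over all members the table holds 30 pseudogene entries named after them, of which 23 were listed at 0 in every library and none exceeded 1.09 FPKM.

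Of the 4 genes for matrix peptidases and proteases, 3 were lower without overlap, against 25.2% of all genes tested, and PMPCB was not. PMPCA, the substrate-binding subunit of the processing peptidase, had 46.9 and 48.3 FPKM without the knockdown and 40.3 and 31.7 FPKM with it, a log2 change of −0.40 with an SE of 0.13. PMPCB, its catalytic subunit, overlapped between the groups, from 37.8 to 43.5 FPKM over the 4 libraries with a log2 change of 0.03. Whether the subunits differed from each other was not tested. CLPP, the proteolytic subunit of the ClpXP protease, was at 49.4 and 48.8 FPKM against 39.5 and 39.6 FPKM, with closely matching knockdown libraries and a log2 change of −0.31 (SE 0.07, limma adjusted p = 0.102). LONP1, the Lon protease that also acts at mtDNA, was at −0.29 and did not overlap.

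Of the genes that replicate mtDNA, C10orf2 had the largest absolute log2 change of all 38 members tested. C10orf2, the helicase TWNK (chromosome 10, 100987367 to 100994401, plus strand), had 7.04 and 7.25 FPKM without the knockdown and 4.19 and 3.29 FPKM with it, or 52.3% of the wild-type mean. The log2 change was −0.79 with an SE of 0.15 (limma adjusted p = 0.0718), and it understates the change in FPKM because the level is low. SSBP1, the mitochondrial single-strand DNA binding protein, was at 226 and 218 FPKM against 189 and 171 FPKM, a log2 change of −0.30 with an SE of 0.08. Both genes had non-overlapping groups with the lowest value in MYC knockdown replicate 2.

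The polymerase subunits lay closer to wild type. POLG, the catalytic subunit, had 14.7 and 15.9 FPKM without the knockdown and 13.6 and 14.8 FPKM with it, overlapping, with a log2 change of −0.10 and an SE of 0.10. POLG2, the accessory subunit, was at 7.89 and 8.30 FPKM against 6.47 and 6.89 FPKM, which did not overlap, with a log2 change of −0.24 and an SE of 0.11.

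Among the transcription and packaging factors, TFB2M was lowest relative to wild type. TFB2M, the initiation factor of mitochondrial transcription (chromosome 1, 246540560 to 246566324, minus strand), had 29.1 and 29.8 FPKM without the knockdown and 22.3 and 21.3 FPKM with it. Both pairs were tight, and the log2 change was −0.42 with an SE of 0.08 (limma adjusted p = 0.0794). Its paralog TFB1M, a methyltransferase of mitochondrial ribosomal RNA, was at 15.7 and 17.8 FPKM against 15.0 and 13.5 FPKM, a log2 change of −0.22. TFAM, which packages mtDNA and starts transcription, was at 35.6 and 34.3 FPKM against 29.5 and 28.0 FPKM, which did not overlap, with a log2 change of −0.27 and an SE of 0.08. POLRMT, the mitochondrial RNA polymerase, overlapped between the groups at a log2 change of −0.04, from 19.5 to 22.1 FPKM over the 4 libraries.

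**Figure D3:**
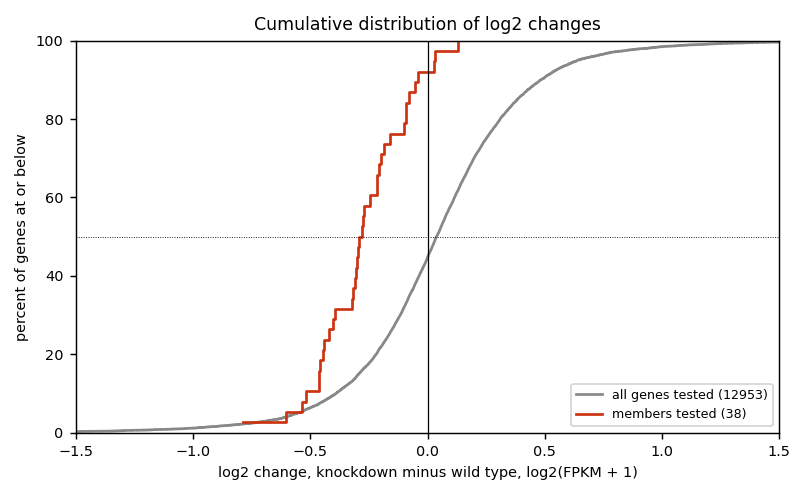
Cumulative percent of genes at or below each log2 change (knockdown minus wild type) for the 38 tested members (red) and all 12953 genes tested (grey); genes beyond the ends of the axis are not drawn. The red curve lies left of the grey one over most of its height and crosses 50% (dotted line) at −0.29, against 0.04 for the grey curve.

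The spread between libraries was uneven. On the log2 scale the members had a median SD of 0.04 without the knockdown and 0.11 with it, against 0.05 and 0.14 over all genes tested. The knockdown libraries lay within 0.1 of each other on the log2 scale for 12 of 38 members (31.6%, against 27.1% of all genes tested), among them TOMM22, TOMM20, CLPP, TFB2M, TFAM, GRPEL1 and TIMM21. They differed by over 0.3 for 9 members, among them TOMM34, TOMM5, TIMM8B, TOMM40, TIMM17B and TIMM23B. The share of all genes tested with such a gap was not computed. The median gap was 0.15 for the members against 0.20 over all genes tested. MYC knockdown replicate 2 was below MYC knockdown replicate 1 for 26 of 38 members, or 68.4%, against 60.5% of all genes tested. The summed level of the 40 entries was 2160 and 2156 FPKM in wild type, 1816 FPKM for MYC knockdown replicate 1 and 1711 FPKM for replicate 2. MYC knockdown replicate 1 is the library with high interferon-stimulated genes. The median log2 change of the members was −0.29 over all 4 libraries, −0.30 without this library and −0.22 without MYC knockdown replicate 2. Over all genes tested these medians were 0.04, 0.01 and 0.07. The part of the interferon-stimulated genes in these results was not tested.

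The protein-coding transcripts of mtDNA itself had medians on different sides of wild type in the knockdown libraries; this list was chosen after its values were seen. The median of the 13 genes, against the mean of the wild-type libraries, was 0.10 for MYC knockdown replicate 1 and −0.51 for replicate 2, and replicate 2 was below replicate 1 for all 13. MT-CO2 of complex IV was at 5993 and 6161 FPKM in wild type, 7588 FPKM for MYC knockdown replicate 1 and 3440 FPKM for replicate 2. The groups did not overlap for 3 of 13, namely MT-ND4L, MT-ND4 and MT-ND1, all lower in both knockdown libraries. That is a share of 23.1% against 25.2% of all genes tested. Limma called 0 at an adjusted p under 0.05 and 0 at an unadjusted p under 0.05. Of all genes tested, 11.5% were lower and 14.4% higher at that unadjusted p. The 2 ribosomal RNA genes of mtDNA had another pattern, with medians of −0.18 for replicate 1 and −0.06 for replicate 2.

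Other genes of the same pathways, from lists that the name rule does not cover, had medians nearer 0 than the members. Of 29 other import genes tested, limma called 0 at an adjusted p under 0.05. At under 0.10 it called 4 lower and 0 higher, against 4.91% and 5.5% of all genes tested. At an unadjusted p under 0.05, 7 were lower and 1 higher, against 11.5% and 14.4% of all genes tested. The median log2 change was −0.07. Of the 29 genes, 27.6% were lower and 10.3% higher without overlap, against 25.2% and 33.4% of all genes tested. The 3 with the smallest p were chaperones of the matrix. HSPD1, the chaperonin HSP60, had 480 and 469 FPKM without the knockdown and 312 and 272 FPKM with it. HSPA9, the HSP70 that pulls proteins through TIM23, was at 153 and 151 FPKM against 115 and 113 FPKM. HSPE1, the co-chaperonin HSP10, was at 393 and 358 FPKM against 281 and 240 FPKM. All 3 were lower in each knockdown library, at log2 changes of −0.70, −0.41 and −0.53. DNAJC15, a J protein of the import motor, was higher in both, at 15.2 and 13.9 FPKM against 19.6 and 17.6 FPKM; it was named after its values were seen, as the 1 other import gene higher at an unadjusted p under 0.05.

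The other proteases of the inner membrane and matrix had a median of −0.12 over 9 genes, with 0 called by limma at an adjusted p under 0.05. At under 0.10 it called 1 lower and 0 higher, against 4.91% and 5.5% of all genes tested. At an unadjusted p under 0.05, 3 were lower and 0 higher, against 11.5% and 14.4% of all genes tested. The gene called at under 0.10 was CLPX, the unfoldase that works with CLPP, at 26.7 and 31.7 FPKM in wild type and 17.7 and 20.3 FPKM in the knockdown. HTRA2, a protease of the intermembrane space, and STOML2, an inner membrane scaffold protein, lay at −0.32 and −0.42. All 3, picked by smallest p, had groups that did not overlap. Of the 9 genes, 33.3% were lower and 0% higher without overlap, against 25.2% and 33.4% of all genes tested.

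The 26 other genes of mtDNA maintenance and expression split in direction, with a median of −0.05. At an adjusted p under 0.05 limma called 0. At under 0.10 it called 2 lower and 3 higher, against 4.91% and 5.5% of all genes tested. At an unadjusted p under 0.05, 6 were lower and 3 higher, against 11.5% and 14.4% of all genes tested. TK2, the mitochondrial thymidine kinase that supplies nucleotides for mtDNA, was higher in the knockdown, at 11.7 ± 0.410 against 7.21 ± 0.453 FPKM (SD, n = 2), with a log2 change of 0.63 and an SE of 0.11 (limma adjusted p = 0.0650). RRM2B, a ribonucleotide reductase subunit with the same role in resting cells, was higher too, at 17.8 and 16.8 FPKM against 11.2 and 12.7 FPKM (log2 change 0.50). TOP1MT, the mitochondrial topoisomerase, was lower, at 13.3 and 13.5 FPKM against 18.01 and 18.60 FPKM (log2 change −0.42). The groups of these 3 genes, picked by smallest p, did not overlap. Of the 26 genes, 34.6% were lower and 19.2% higher without overlap, against 25.2% and 33.4% of all genes tested.

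Of the regulators of mitochondrial biogenesis, limma called 0 of 7 at an adjusted p under 0.05 and 0 at under 0.10. Over all genes tested, 4.91% were lower and 5.5% higher at under 0.10. At an unadjusted p under 0.05, 2 regulators were lower and 0 higher, against 11.5% and 14.4% of all genes tested. Their median log2 change was −0.07. The coactivators PPARGC1B and PPRC1 were lower, at log2 changes of −0.75 and −0.42, with PPARGC1B at a mean of 1.45 FPKM in wild type against 0.59 and 0.34 FPKM with the knockdown. GABPB1, a subunit of an ETS-type regulator of mitochondrial genes, lay at −0.22. PPARGC1A was at most 0.04 FPKM and was not tested.

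**Figure D4:**
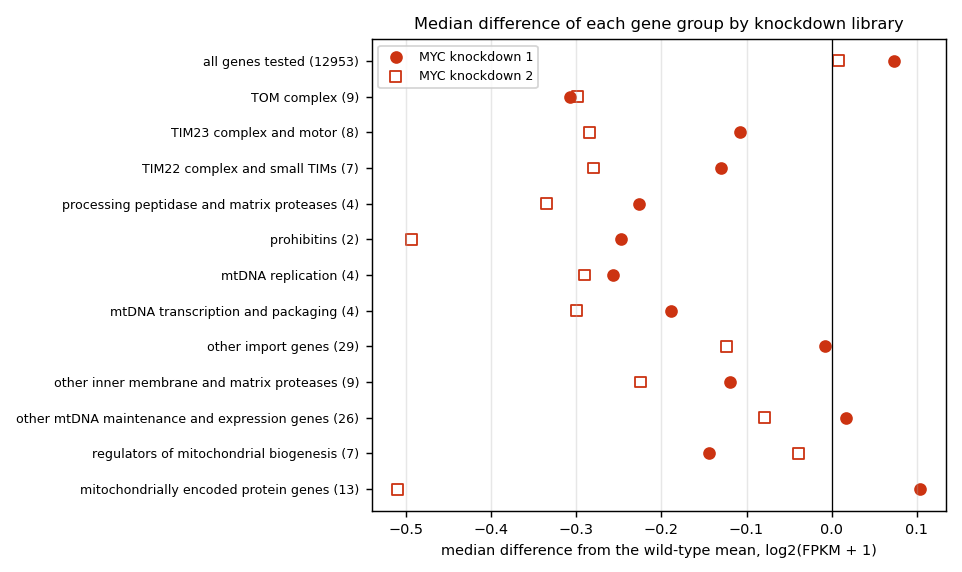
Median difference from the wild-type mean on the log2(FPKM + 1) scale in each knockdown library, for all genes tested, the 7 roles of the members, and the other gene lists, with the number of genes tested in brackets. Filled circles are replicate 1, open squares are replicate 2, and both share the same wild-type libraries. The 7 roles lie left of 0 in both libraries, and the mitochondrially encoded genes lie at 0.10 for replicate 1 and at −0.51 for replicate 2.

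Promoter sequences were read for the members to show which letters of known binding motifs they hold. RefSeq promoter windows (build GRCh38.p14, from 250 bases before to 50 after an annotated start) matched 33 members. The 32 of them that were tested have 36 windows, and a gene counts if any window holds the letters. The letters CACGTG, the E-box that MYC with MAX binds and which reads the same on both strands, were in the windows of 4 of the 32 (12.5%), namely LONP1, TIMM10, TIMM8A and TOMM20, against 12.6% of 9624 matched genes tested and 7.26% of all 35114 windows. GCATGCGC, the core bound by the regulator NRF1, was searched on both strands and was in 7 of 32 (21.9%), against 6.62% of matched genes tested and 3.05% of all windows. CCGGAAG, an ETS-type motif also searched on both strands, was in 16 of 32, against 23.7% and 10.3%. In the members’ windows 0 matches of one motif shared a base with a match of another, and a match is a description of the letters and not evidence of binding. Examples with the motif in capitals, each upstream of the start and outside the gene's own annotated exons, are printed from 5′ to 3′ on the gene's strand.
TOMM20, the E-box, chr1:235128978-235129027, minus strand: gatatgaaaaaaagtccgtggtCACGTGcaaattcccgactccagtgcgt
TFB1M, the NRF1 core, chr6:155314585-155314636, minus strand: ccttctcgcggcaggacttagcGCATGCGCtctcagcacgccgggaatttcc
TOMM7, the NRF1 core, chr7:22822943-22822994, minus strand: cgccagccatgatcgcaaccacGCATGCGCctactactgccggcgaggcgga
PHB2, the ETS-type motif, chr12:6970883-6970933, minus strand: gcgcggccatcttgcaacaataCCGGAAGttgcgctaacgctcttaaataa

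The members with and without the E-box letters had overlapping log2 changes. TOMM20, TIMM8A, LONP1 and TIMM10 stood at −0.32, −0.47, −0.29 and −0.16. Matched members whose windows lack the letters ran from −0.60 for TIMM13 to 0.13 for TIMM23B. Whether the letters go with the size of the change was not tested. The promoters of C10orf2, TOMM5, TIMM8B, CLPP, GRPEL1 and TIMM23 were not matched.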

How the data were processed

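The authors deposited 1 table of FPKM values per gene for the 4 libraries, with 2 decimals. No header names the unit; it was read from unequal column sums, and TPM with entries left out cannot be told apart from it. STAR and RSEM are named per the submitters' processing notes; their versions, the build and the annotation were not given in the sources used here. Of the table, the 53777 Ensembl entries were used, and 291033 other entries were left out.

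The 12953 genes that reached 1 FPKM in 2 or more libraries entered the fit as log2(FPKM + 1), which understates changes of low genes, with limma 3.58.1 in R 4.3.3 (lmFit, eBayes with a mean trend), all genes together, with Benjamini-Hochberg adjustment at 0.05. FPKM keeps no depth, so no counting interval is given. On simulated data for this comparison (12953 genes, 200 changed), limma recovered on average 0, 12.2 and 168.2 of those given log2 changes of 0.5, 1 and 2. How many genes change in the data is not known, so recovery there may differ. Gene positions come from GENCODE release 29 by gene ID, for 38 of 40 entries.

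The members, lists and tests were chosen with earlier results of these data known. Members described with every library's value were the 16 with the largest absolute log2 change, the highest in level of each role, those above wild type in both libraries, and 6 paralog pairs; other lists give up to 3 genes by smallest p. The motifs and the mitochondrially encoded genes were chosen after seeing the data. Alternatives were the filter, pseudocount, replicate block, each library left out, 3 scalings, protein-coding entries alone, no mean trend and a threshold of 0.10.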

Additional observations from a re-analysis of the deposited data

How the results depend on the processing

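The lower level of the members kept its direction under every alternative run: the median log2 change lay between −0.20 and −0.33. With every library scaled to the same column sum it was −0.20, against 0.12 over all genes, and leaving out 1 library gave −0.30 to −0.22. Limma called 2 members at an adjusted p under 0.05, TIMM13 and TOMM22, with a mean of at least 5 FPKM. It called the same 2 with median-of-ratios scaling and with protein-coding entries alone. Over all it called 310, 308 and 385 genes there, or 3.23%, 2.38% and 3.33% of the genes tested in each. A threshold of 0.10 gave 7 members and 1349 genes, or 10.4% of all genes tested. Shares of all genes called there were 0% with no filter on low values and 6.47% without the mean trend. They were 16.6% with equal column sums, 10.1% with a pseudocount of 0.1 and 9.31% with quantile normalization. They were 14.3% with protein-coding entries alone, 15.6% with the mean filter and 12.8% with median-of-ratios scaling. With equal column sums, the 5 of 38 members called were a smaller share. At 0.10 the members numbered 0 with no filter on low values, 3 without the mean trend, 5 with equal column sums, 6 with a pseudocount of 0.1, 7 with quantile normalization, 9 with protein-coding entries alone, 10 with the mean filter, 13 with median-of-ratios scaling and 0 to 27 with 1 library left out. Leaving out 1 library gave 0 to 26 members and 0 to 3413 genes over all. Members with both knockdown values above wild type numbered 0 with median-of-ratios scaling and quantile normalization. The mean filter also gave 0, because it leaves out TIMM22, the 1 such member, at 4.16 FPKM in the wild-type mean. With 1 library left out a group holds a single value and overlaps less easily, so no such count is given. The log2 change of TIMM22 was −0.0058 with median-of-ratios scaling and −0.0452 with quantile normalization, and that of TIMM17B was 0.0331 with equal column sums. Leaving out 1 library put TIMM23 between −0.233 and 0.0478 and TIMM17B between −0.255 and 0.146, each positive without MYC knockdown replicate 2. The cause of these shifts was not tested. At 0.10 the genes called over all were 636 lower and 713 higher, 591 and 1559 with equal column sums, and 968 and 684 with median-of-ratios scaling. With the replicate number as a block, limma called 0 members and 0 genes at 0.05. At 0.10 it called 2 of 38 members and 723 genes (5.58% of all genes tested). The median stayed at −0.29. The labels do not say whether equal replicate numbers pair the libraries, and pairing was not tested. The differences between replicates 1 and 2 of the groups correlated at −0.0059 across 12953 genes. Without a low-value filter, entries at 0 in all 4 libraries were still left out. On simulated data with 200 of 12953 genes changed, limma recovered on average 0 of the 200 at a log2 change of 0.5. In the data 1349 genes passed at an adjusted p under 0.10, so recovery in the data may differ.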
